A study of Mus musculus with 14 samples.

Results

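The KCl response of BRG1 S1382A neurons was compared with that of their wild-type littermates, gene by gene, over 8 of the 14 libraries of the series. These are the basal and the KCl library of 4 of its 7 cultures, taken by genotype and treatment labels: SA cultures 1 and 2, and wild-type cultures 1 and 2 of the same line. SA neurons come from knock-in embryos with the S1382A change in BRG1, which puts an alanine, a residue that cannot be phosphorylated, in place of a serine. All cultures held cortical neurons taken from mouse embryos at E16.5. On day 5 in vitro every culture, basal ones included, received 1 µM tetrodotoxin, a sodium channel blocker, and 100 µM APV, an NMDA receptor blocker. On day 6 the KCl group was depolarised with 50 mM KCl for 1 h. The title of the series asks about phosphorylation of this residue in activity-dependent gene activation. Whether embryos were pooled for a culture is not given in the labels. These do not state that the basal and KCl libraries of a number share a culture, but their short names share a stem, and they are treated as a pair here. With 2 responses against 2, p-values measure the spread between these cultures only. The other 6 libraries, of a line with glutamate at the same residue (SE, 2 cultures) and its wild type (1 culture), served only to choose responding genes.

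The BAF complex draws on an ATPase, BRG1 (gene Smarca4), and moves nucleosomes and opens chromatin at enhancers and promoters. When a neuron is depolarised, calcium enters and kinases act on factors such as CREB and SRF that are already bound to DNA. Immediate early genes are transcribed within minutes and without new protein synthesis. Many of them encode transcription factors that act on a later set of secreted and synaptic genes, while others encode phosphatases that shut the signal off.

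The cyclic AMP response element (CRE), the DNA site of CREB, and its core TGACG are printed here for 4 induced genes whose response differences, described later, ran from -0.32 (Homer1) to 0.68 (Dusp1). They were chosen after the matches and responses were seen. The sequences are from RefSeq on build GRCm38.p6, read 5′ to 3′ on the strand of the gene, and cover up to 250 bases before a RefSeq start, without any part that GENCODE annotates as an exon of the gene. Capitals mark TGACG on either strand, which reads CGTCA on the other one. A full TGACGTCA counts as a core on each strand.
Fos (chr12:85473640-85473889, plus strand): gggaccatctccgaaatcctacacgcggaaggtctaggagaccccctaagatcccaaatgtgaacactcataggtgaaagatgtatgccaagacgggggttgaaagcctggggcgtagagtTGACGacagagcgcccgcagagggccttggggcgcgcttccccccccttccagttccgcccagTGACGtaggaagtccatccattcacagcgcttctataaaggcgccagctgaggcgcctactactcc
Nr4a1 (chr15:101266596-101266845, plus strand): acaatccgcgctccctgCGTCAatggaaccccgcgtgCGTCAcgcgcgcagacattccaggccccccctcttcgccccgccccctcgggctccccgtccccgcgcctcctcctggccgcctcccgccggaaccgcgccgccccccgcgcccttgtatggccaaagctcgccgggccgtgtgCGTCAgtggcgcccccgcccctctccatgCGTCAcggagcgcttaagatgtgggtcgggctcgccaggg
Dusp1 (chr17:26508520-26508722, minus strand): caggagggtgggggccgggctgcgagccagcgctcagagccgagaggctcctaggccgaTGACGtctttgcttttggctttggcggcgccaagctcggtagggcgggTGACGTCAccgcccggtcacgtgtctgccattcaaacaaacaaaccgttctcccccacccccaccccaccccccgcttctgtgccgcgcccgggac
Homer1 (chr13:93303507-93303756, plus strand): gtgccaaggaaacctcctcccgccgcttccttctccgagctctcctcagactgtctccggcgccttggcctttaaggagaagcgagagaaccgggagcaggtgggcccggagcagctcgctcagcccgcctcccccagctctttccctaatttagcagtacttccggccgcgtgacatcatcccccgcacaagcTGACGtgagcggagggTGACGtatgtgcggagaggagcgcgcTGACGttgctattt
The Fos window holds the core 2 times, Nr4a1 4 times, Dusp1 3 times including 1 full CRE, and Homer1 3 times.

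The 8 libraries held 22625916 to 22948613 estimated counts, 6.47% to 8.24% of them from the mitochondrial genome. The first principal component of log2 CPM (45.5% of the variance) put both libraries of wild-type culture 1 at 57.8 and 60.7, and the other 6 libraries between -36.5 and -7.29. Sex-linked genes put SA culture 1 and wild-type culture 2 as female (Xist at 498 to 792 CPM) and SA culture 2 and wild-type culture 1 as male (Ddx3y at 30.9 to 59.3 CPM), so each genotype had 1 of each. Smarca4 itself (chromosome 9, 21616169 to 21704230, plus strand), an mRNA whose level checks no genotype label here, had log2 responses of -0.06 and -0.12 in SA cultures 1 and 2 and 0.01 and -0.23 in wild-type cultures 1 and 2.

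A response is the log2 ratio of KCl to basal CPM of a culture, and the response difference is the SA response minus the wild-type response fitted by edgeR with a level per culture. It was called at an adjusted p under 0.05. A doubled or halved response in SA means a ratio of KCl to basal 2-fold above or below that of wild type. Both genotypes responded. In this fit 864 of 17162 genes (5.03%) were called after KCl in SA, 434 higher (2.53%) and 430 lower (2.51%). In wild type 619 (3.61%) were called, 398 higher (2.32%) and 221 lower (1.29%). These counts moved with the culture and the design: without SA culture 1 the fit called 200 genes in SA, without wild-type culture 2 it called 332 in wild type, and without a level per culture it called 67 and 46.

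The difference between these responses was called for no gene. The edgeR quasi-likelihood test called 0 of 17162 (0%), with 710 genes (4.14%) at an unadjusted p under 0.05, of which 180 (1.05%) had the higher response in SA and 530 (3.09%) the lower. DESeq2 and limma voom also called 0, with 134 and 711 at an unadjusted p under 0.05. The lowest adjusted p was 0.429. Both SA responses lay above both wild-type responses for 2288 genes (13.3%) and below both for 2937 (17.1%). For a single gene an exact permutation of 2 against 2 responses cannot go below p = 0.333. The calls rested on the design and on single cultures, as the fits without wild-type culture 1 or without wild-type culture 2 called some genes. Each of these fits keeps 1 wild-type culture and holds no spread between wild-type cultures. For single genes they are given as effect sizes only.

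Most transcription factors of the immediate early response were induced in both genotypes, 24 of 30 in each, against 2.53% of all genes in SA and 2.32% in wild type. This list and those of effectors, delayed response genes and feedback inhibitors below were chosen with earlier results of these data known. Their shares of induced genes are thus not independent evidence. Npas4, a neuron-specific activity factor (chromosome 19, 4984355 to 4990316, minus strand), went from 1.89 to 525 CPM in SA culture 1 and from 1.54 to 532 in SA culture 2. In wild-type cultures 1 and 2 it went from 2.41 to 568 and from 1.71 to 516. The 4 log2 responses, 8.05 and 8.35 in SA and 7.83 and 8.17 in wild type, overlapped, and the difference was 0.23 ± 0.24 (SE; 95% interval -0.28 to 0.73; edgeR adjusted p = 1), or 0.03 without wild-type culture 1.

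Fos, an AP-1 subunit (chromosome 12, 85473890 to 85477273, plus strand), went from 6.12 to 469 CPM and from 7.74 to 433 in SA cultures 1 and 2, and from 11.7 to 521 and from 6.39 to 438 in wild-type cultures 1 and 2. Its responses were 6.24 and 5.79 in SA and 5.47 and 6.08 in wild type, with overlap, and the difference was 0.27 (95% interval -0.16 to 0.70). Wild-type culture 1 had the lowest of the 4 responses and the highest basal level. Its relative Fosb (chromosome 7, 19302696 to 19310051, minus strand) had responses of 9.27, 9.55, 8.32 and 9.53 in the same order, and a difference of 0.63 (95% interval -0.28 to 1.54). Again 3 cultures lay close together and wild-type culture 1 below them. Without that culture the difference was -0.08 for Fos and -0.15 for Fosb.

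Nr4a1, an orphan nuclear receptor whose window above has 4 CRE cores (chromosome 15, 101254269 to 101274795, plus strand), had responses of 6.78 and 6.38 in SA and 6.62 and 6.59 in wild type. The wild-type values lay between the SA values, and the difference of -0.03 had a 95% interval of -0.38 to 0.32. The zinc finger factor Egr1 (chromosome 18, 34859823 to 34864984, plus strand) had responses of 5.14 and 4.83 in SA and 4.81 and 5.01 in wild type, a difference of 0.08 (95% interval -0.22 to 0.37). Both intervals exclude a doubled and a halved response in SA. Without SA culture 2 the difference of Nr4a1 was 0.22, and without SA culture 1 that of Egr1 was -0.07, so neither sign was stable.

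The related factor Egr2 (chromosome 10, 67535475 to 67542188, plus strand) went from 1.58 to 105 CPM and from 0.879 to 85.2 in SA cultures 1 and 2, and from 1.29 to 46.5 and from 1.75 to 91.4 in wild-type cultures 1 and 2. Both SA responses (5.99 and 6.46) were above both wild-type responses (5.08 and 5.64), with a difference of 0.80 ± 0.28 (95% interval 0.21 to 1.39; adjusted p = 1). Egr3 (chromosome 14, 70077203 to 70082614, plus strand) lay the other way, with SA responses of 2.48 and 2.59 and wild-type responses of 4.43 and 2.71, and a difference of -0.86 (95% interval -1.56 to -0.17). Its basal level was 5.69 CPM in wild-type culture 1 and 23.7 to 30.0 in the other 3 cultures. Klf4, a Kruppel-like factor (chromosome 4, 55527143 to 55532466, minus strand), had responses of 5.48 and 4.71 in SA and 2.70 and 5.10 in wild type, which overlapped. Its basal level was 8.06 CPM in wild-type culture 1 and 2.03 to 2.95 elsewhere. The Klf4 difference of 1.44 (95% interval 0.30 to 2.58) became -0.03 without wild-type culture 1, and that of Egr3 became -0.17. Without wild-type culture 2, which leaves culture 1 as the only wild type, the difference was 2.40 for Klf4 and -1.91 for Egr3. The part of the basal levels of wild-type culture 1 in these results was not tested.

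All of the 30 immediate early transcription factors in the list were tested. Of these, 24 were called as induced in SA and 24 in wild type (2.53% and 2.32% of all genes), and none was called for the response difference. Both SA responses were above both wild-type responses for 3 (10%, against 13.3% of all genes) and below both for 6 (20%, against 17.1%). The median difference was 0.11, against -0.01 over all genes tested, and the range was -0.86 (Egr3) to 1.44 (Klf4). The median was -0.02 without wild-type culture 1 and 0.02 without SA culture 1. For 24 of the 30 the 95% interval excluded both a doubled and a halved response in SA, as it did for 13206 of all 17162 genes. Besides Egr2, the circadian repressor Nfil3 had separated higher responses, at 3.22 and 2.98 in SA and 2.76 and 2.88 in wild type (difference 0.28, 95% interval 0.005 to 0.55; 0.17 without SA culture 1).

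**Figure D1:**
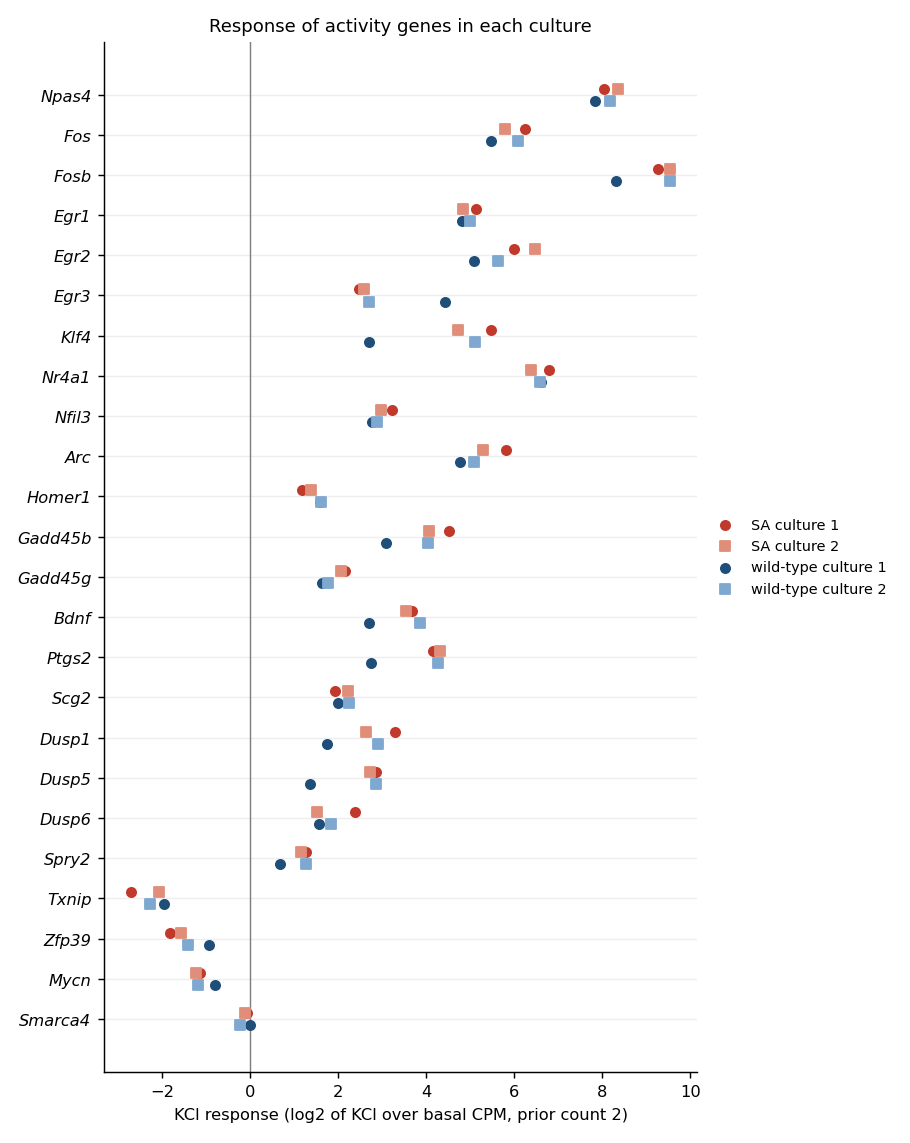
KCl response (log2 of KCl over basal CPM, horizontal axis) of activity genes and Smarca4 in each of the 4 cultures, with SA in red and wild type in blue, circles for culture 1 and squares for culture 2. Npas4 lies between 7.83 and 8.35 in all cultures, and wild-type culture 1 lies apart for Klf4 (2.70) and Egr3 (4.43).

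Among immediate early genes whose products act at synapses or on signalling, Arc had a higher response in both SA cultures. Its product controls the uptake of AMPA receptors from the synapse (chromosome 15, 74669083 to 74672570, minus strand). It went from 1.76 to 104 CPM and from 1.89 to 77.9 in SA cultures 1 and 2, and from 3.11 to 87.8 and from 2.36 to 83.1 in wild-type cultures 1 and 2. The SA responses of 5.82 and 5.30 did not overlap the wild-type responses of 4.78 and 5.08. The difference was 0.67 ± 0.23 (SE; 95% interval 0.18 to 1.15), with an unadjusted p of 0.0103 and an edgeR adjusted p of 1. KCl levels of the genotypes overlapped, and both basal levels were lower in SA than in wild type. With any single culture left out the difference was 0.41 to 0.96, and its sign followed from the separated responses.

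The stress and DNA demethylation regulators Gadd45b and Gadd45g were also higher in both SA cultures. Gadd45g (chromosome 13, 51846678 to 51848468, plus strand) had responses of 2.16 and 2.06 in SA and 1.63 and 1.77 in wild type, a difference of 0.41 ± 0.14 (95% interval 0.12 to 0.71). Gadd45b (chromosome 10, 80930073 to 80932204, plus strand) had 4.52 and 4.05 in SA and 3.09 and 4.05 in wild type, where SA culture 2 and wild-type culture 2 lay within 0.01 of each other. Its difference of 0.71 (95% interval 0.14 to 1.28) was 0.22 without wild-type culture 1 and 1.19 without wild-type culture 2.

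Homer1, a scaffold of metabotropic glutamate receptors with a short activity-induced form (chromosome 13, 93299635 to 93405129, plus strand), went from 63.7 to 144 CPM and from 49.6 to 130 in SA cultures 1 and 2. In wild-type cultures 1 and 2 it went from 39.0 to 117 and from 65.0 to 200. Its responses were lower in both SA cultures (1.18 and 1.39) than in wild type (1.58 and 1.62), a difference of -0.32 ± 0.11 (95% interval -0.56 to -0.07; adjusted p = 1), or -0.20 without SA culture 1. These values sum all transcripts of the gene, so the short form is not separated. In the list of 20 immediate early effectors 15 were called as induced in SA and 15 in wild type (2.53% and 2.32% of all genes). Both SA responses were above wild type for 5 (25%, against 13.3% of all genes) and below for 4 (20%, against 17.1%), and the median difference was 0.01.

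In a list of delayed response genes and genes for secreted proteins, Bdnf and Ptgs2 differed more between the wild-type cultures than between the SA cultures. The neurotrophin gene Bdnf (chromosome 2, 109674700 to 109727007, plus strand) went from 2.12 to 28.0 CPM and from 2.64 to 31.9 in SA cultures 1 and 2, and from 4.24 to 28.1 and from 2.80 to 42.1 in wild-type cultures 1 and 2. Its responses were 3.67 and 3.55 in SA and 2.71 and 3.87 in wild type, so the SA values lay between the wild-type values. The difference of 0.37 (95% interval -0.28 to 1.01) became -0.25 without wild-type culture 1. Ptgs2, which encodes cyclooxygenase-2 (chromosome 1, 150100031 to 150108227, plus strand), had responses of 4.15, 4.31, 2.75 and 4.27 in SA cultures 1 and 2 and wild-type cultures 1 and 2. Its difference of 0.85 (95% interval -0.23 to 1.93) was 0.01 without wild-type culture 1.

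Scg2, a precursor of secreted neuropeptides (chromosome 1, 79434669 to 79440120, minus strand), was the most even of these. It went from 32.6 to 124 CPM and from 23 to 108 in SA cultures 1 and 2, and from 26.7 to 106 and from 27.7 to 132 in wild-type cultures 1 and 2. The responses of 1.92 and 2.22 in SA and 1.99 and 2.25 in wild type differed by -0.06 (95% interval -0.34 to 0.23), with no stable sign (0.10 without SA culture 1). The neuropeptide gene Sst (chromosome 16, 23889573 to 23890958, minus strand), an interneuron product, had lower responses in both SA cultures (0.36 and 0.55) than in wild type (1.15 and 0.78), and a difference of -0.50 ± 0.16 (95% interval -0.85 to -0.14; adjusted p = 1), or -0.33 without wild-type culture 1. Fbxo33, an F-box ubiquitin ligase adaptor, had a difference of 0.47, which was -0.01 without wild-type culture 1 and 0.94 without wild-type culture 2. Of the 20 genes in this list 14 were called as induced in SA and 13 in wild type (2.53% and 2.32% of all genes). Responses were separated for 2 in each direction (10%, against 13.3% of all genes above and 17.1% below). The median difference was 0.14, and -0.17 without wild-type culture 1.

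Most feedback inhibitors of MAP kinase signalling, 12 of 17, were called as induced in each genotype (2.53% of all genes in SA and 2.32% in wild type). Wild-type culture 1 lay apart for Dusp1 and Dusp5. Dusp1, a MAP kinase phosphatase with a full CRE in the window above (chromosome 17, 26505590 to 26562128, minus strand), went from 11 to 108 CPM and from 15.9 to 99.6 in SA cultures 1 and 2. In wild-type cultures 1 and 2 it went from 29.5 to 99.2 and from 12 to 91.0. Responses were 3.29 and 2.64 in SA and 1.75 and 2.92 in wild type, with overlap. The difference of 0.68 (95% interval 0.08 to 1.29) was 0.03 without wild-type culture 1, the culture with the highest basal level. Dusp1 overlaps antisense genes, among them Ergic1, whose reads may not be separated.

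The nuclear ERK phosphatase gene Dusp5 had responses of 2.86, 2.73, 1.36 and 2.87 in SA cultures 1 and 2 and wild-type cultures 1 and 2, a difference of 0.85 that was -0.08 without wild-type culture 1. Without wild-type culture 2 the difference was 1.21 for Dusp1 and 1.45 for Dusp5. The cytoplasmic ERK phosphatase gene Dusp6 had responses of 2.38 and 1.53 in SA and 1.57 and 1.84 in wild type (difference 0.23, 95% interval -0.20 to 0.67), and its difference was -0.17 without SA culture 1. Spry2, a brake on growth factor receptor signalling, had a difference of 0.25 that was -0.06 without wild-type culture 1. Of the 17 genes 1 was called as lower after KCl in SA, against 2.51% of all genes. Separated responses were higher in SA for 1 (5.88%, against 13.3% of all genes) and lower for 2 (11.8%, against 17.1%). The median difference was -0.04, and 0.07 without SA culture 2.

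Responding genes were next taken from the SE line, whose libraries share none with the compared cultures. There edgeR called 1990 of 15907 genes (12.5%) after KCl, 250 of them at least 2-fold higher and 125 at least 2-fold lower. Of the 250 induced genes 236 passed the filter here, and of the 125 reduced genes 122 did. The 236 had a median response of 1.32 and 1.16 in SA cultures 1 and 2 and of 0.90 and 1.17 in wild-type cultures 1 and 2. The mean of the culture medians was 1.24 ± 0.11 in SA and 1.04 ± 0.19 in wild type (SD, n = 2), so the gap between genotypes was close to the SD within wild type. Responses were at least 2-fold for 152 and 134 of the 236 genes in SA and for 109 and 136 in wild type.

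Gene by gene, the induced set had a median response difference of 0.11, with 150 positive and 86 negative values, whereas 7990 of all 17162 genes were positive. Both SA responses were above both wild-type responses for 42 genes (17.8%, against 13.3% of all genes) and below for 19 (8.05%, against 17.1%). No gene of the 236 was called, 21 were higher and 8 lower at an unadjusted p under 0.05. Over all 17162 genes 180 (1.05%) were higher and 530 (3.09%) lower at that threshold. The 95% interval excluded a doubled response in SA for 166 genes, a halved one for 187 and both for 145. Over all 17162 genes these counts were 14535, 14440 and 13206. Wild-type culture 1 had the lowest response of the 4 cultures for 119 of the 236. Without it the median difference was -0.01, and without wild-type culture 2 it was 0.20. It was 0.04 without SA culture 1 and 0.22 without SA culture 2.

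The same pattern was seen when cultures were compared pair by pair over the 236 genes. The median absolute difference in response was 0.25 between the SA cultures and 0.33 between the wild-type cultures. Between genotypes it was 0.39 and 0.33 for SA cultures 1 and 2 against wild-type culture 1, and 0.23 and 0.24 against wild-type culture 2. Either SA culture was thus nearer to wild-type culture 2 than wild-type culture 1 was. At basal the induced genes stood at a median of 0.19 (log2) above the other 3 basal libraries in wild-type culture 1 and 0.17 below them in SA culture 1. After KCl all 4 libraries stood between -0.07 and 0.04 of the others. The mean responses of SA and wild type correlated across the 236 genes (Pearson r = 0.943; genes are not independent replicates).

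**Figure D2:**
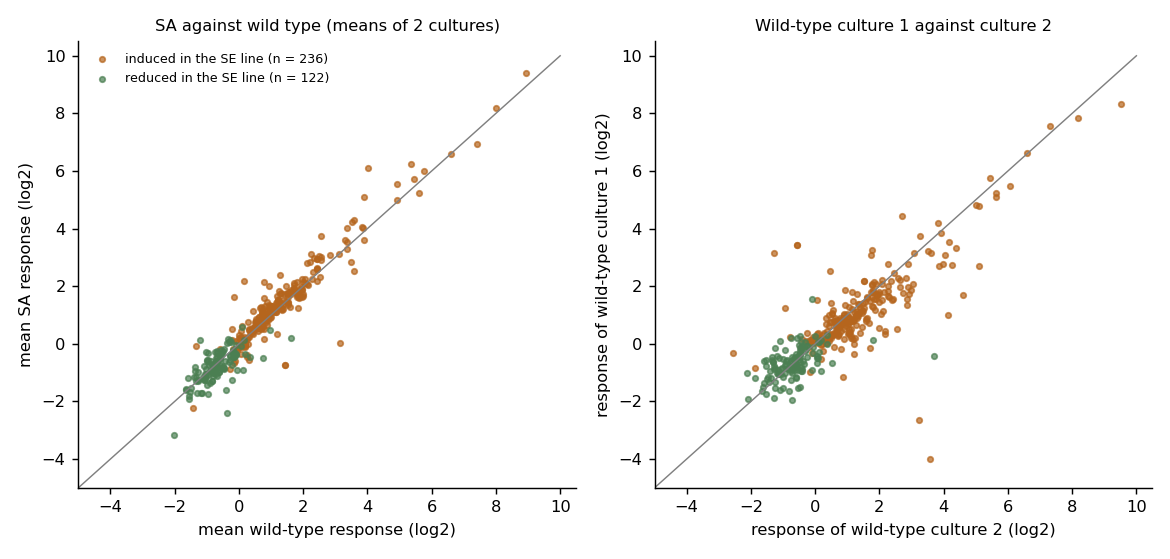
Responses (log2) of the 236 genes induced and 122 reduced in the SE line. The left panel sets the mean SA response (vertical axis) against the mean wild-type response (horizontal axis), and the right panel sets wild-type culture 1 (vertical) against wild-type culture 2 (horizontal); grey lines mark equal responses. The left panel averages 2 cultures per axis and the right panel shows single cultures, whose responses differed by a median of 0.33 over the induced genes.

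CRE sequences were frequent among the induced genes, and genes with and without them were compared. A promoter window of 250 bases was matched for 150 of the 236 induced genes. The core TGACG was found on either strand in 76 of them (50.7%, against 19.8% of the 27025 genes with a window), and the full TGACGTCA, which contains the core, in 17 (11.3% against 1.77%). The 17 genes with a full CRE had a median response difference of -0.02 and those without it of 0.16. For the core the medians were 0.11 with and 0.18 without it. The CArG box, the site of SRF, was found in 5 genes (3.33% against 1.62%), the AP-1 site TGANTCA in 8 (5.33% against 7.82%) and the E box CANNTG in 95 (63.3% against 69.3%). Median differences with these sites were 0.12, 0.14 and 0.16. The 27025 genes include ones not tested here, so these shares do not separate being expressed from being induced. These matches describe letters in a window and were not tested.

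Genes reduced by KCl lay slightly lower in SA. The 122 genes reduced in the SE line had median responses of -0.85 and -0.71 in SA and -0.69 and -0.67 in wild type. Their median difference was -0.09, or -0.004 without SA culture 1. Both SA responses were below both wild-type responses for 30 of them (24.6%, against 17.1% of all genes) and above for 18 (14.8%, against 13.3%), and none was called. The thioredoxin-binding protein gene Txnip, an alpha-arrestin (chromosome 3, 96557957 to 96561883, plus strand), went from 40.8 to 6.18 CPM and from 47.4 to 11.1 in SA cultures 1 and 2, and from 48.4 to 12.5 and from 47.2 to 9.74 in wild-type cultures 1 and 2. Its responses of -2.70, -2.08, -1.95 and -2.27 overlapped, and the difference of -0.26 was 0.02 without SA culture 1. The zinc finger gene Zfp39 had lower responses in both SA cultures (-1.82 and -1.58) than in wild type (-0.94 and -1.41), with a difference of -0.56 ± 0.22 (95% interval -1.03 to -0.09; adjusted p = 1), or -0.32 without wild-type culture 1. The MYC family gene Mycn differed by -0.19, and by 0.01 without wild-type culture 1. Of 9 listed genes that fall with activity 8 were called as lower in SA and 9 in wild type (2.51% and 1.29% of all genes). Their median difference was -0.13, or 0.04 without wild-type culture 1. Some of these 9 were listed for their fall in these libraries, so their direction is not independent evidence.

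**Figure D3:**
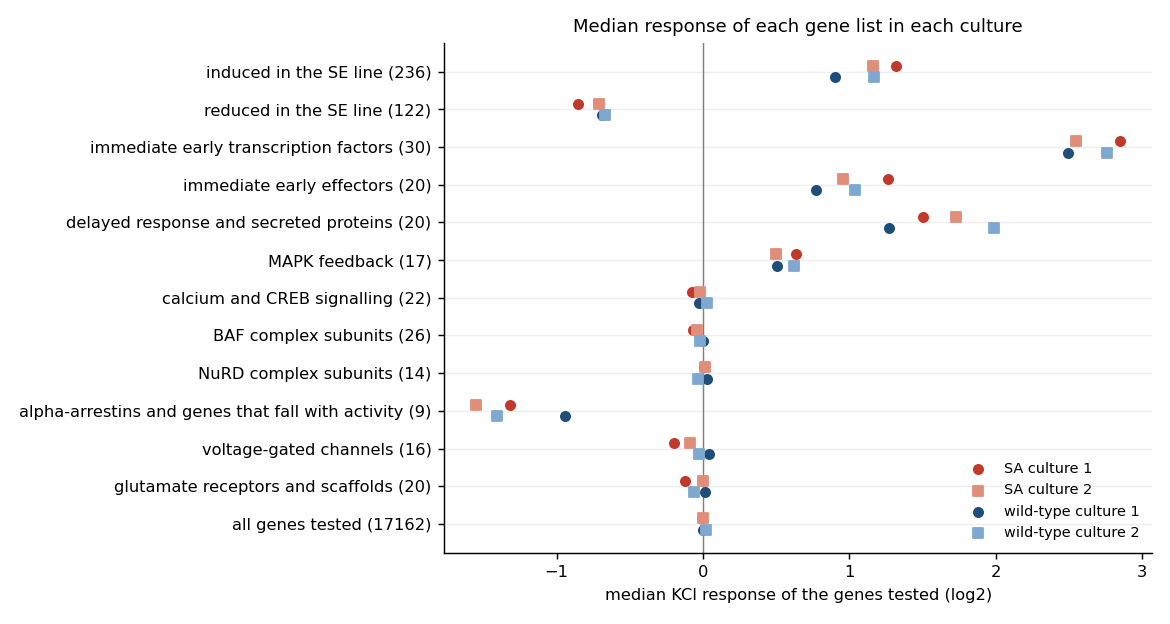
Median KCl response (log2, horizontal axis) of the tested members of each gene list in each culture, with the number of genes in brackets. In the genes induced in the SE line wild-type culture 1 (0.90) lies below the other cultures (1.16 to 1.32), and the medians over all genes lie near 0 in all 4.

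The named genes with the lowest p for a higher response in SA had differences of 0.39 to 1.42 on the log2 scale and adjusted p from 0.983 to 1. Nfkbiz, an IkB family regulator of NF-kB (chromosome 16, 55811375 to 55838899, minus strand), went from 3.78 to 17 CPM and from 2.73 to 18 in SA cultures 1 and 2. In wild-type cultures 1 and 2 it went from 6.64 to 9.77 and from 4.16 to 16.8. Its SA responses (2.10 and 2.68) were above those of wild type (0.55 and 2.00), with a difference of 1.15 ± 0.36 (95% interval 0.38 to 1.92). The difference was 0.39 without wild-type culture 1, and 1.85 without wild-type culture 2.

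Cdc42ep3, an effector of the GTPase CDC42 (chromosome 17, 79333727 to 79355091, minus strand), had responses of 0.84 and 0.90 in SA and 0.18 and 0.65 in wild type, a difference of 0.45 ± 0.14 that was 0.22 without wild-type culture 1 and 0.69 without wild-type culture 2. It was called as induced in each genotype (edgeR adjusted p = 7.73e-05 in SA and 0.0365 in wild type), as were Nfkbiz and Gadd45g. The lymphocyte surface gene Ly9 had the largest difference of these genes, 1.42 ± 0.45, from 0.585 to 1.33 CPM and from 0.528 to 1.06 in SA cultures 1 and 2 and from 2.24 to 2.07 and from 1.62 to 1.05 in wild-type cultures 1 and 2. This gene was scarce, with 0.528 to 2.24 CPM over the 8 libraries.

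Of the remaining higher genes, Pakap was called as induced in SA (edgeR adjusted p = 0.00932) and Gpr146 as reduced in wild type (adjusted p = 0.0271), and no other response of these genes was called. Pakap (0.35 and 0.62 in SA, 0.03 and -0.10 in wild type; difference 0.52) overlaps Palm2 and Akap2 on the same strand. Snurf (difference 0.67) shares its locus with Snrpn, so counts of Pakap and Snurf depend on how kallisto split shared reads. Nutf2-ps1 (0.71) has the name of a pseudogene, but GENCODE annotates it as protein coding. Whether it shares reads with another gene was not examined. Nutf2-ps1 had responses of 1.04 and 0.08 in SA and -0.27 and -0.07 in wild type, and its difference was 0.26 without SA culture 1. The orphan receptor gene Gpr146 (0.46), Gpatch1 (0.41) and Serf1 (0.39) had wild-type responses between -0.43 and -0.03, and SA responses between -0.08 and 0.31.

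The named genes with the lowest p for a lower response in SA had differences of -2.31 to -0.48 and adjusted p from 0.645 to 0.774. Zbtb20, a zinc finger repressor of brain development (chromosome 16, 42875881 to 43642602, plus strand), went from 212 to 146 CPM and from 217 to 164 in SA cultures 1 and 2, and from 236 to 254 and from 314 to 306 in wild-type cultures 1 and 2. Its SA responses of -0.54 and -0.41 lay below wild type at 0.10 and -0.04, and the difference was -0.51 ± 0.11 (SE; 95% interval -0.74 to -0.28; edgeR unadjusted p = 3.43e-04, adjusted p = 0.645). With any single culture left out it lay between -0.58 and -0.44.

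Nrg1, which encodes neuregulin 1, a ligand of ERBB receptors (chromosome 8, 31814551 to 32884029, minus strand), went from 8.51 to 5.40 CPM and from 10.9 to 7.41 in SA cultures 1 and 2. In wild-type cultures 1 and 2 it went from 15.8 to 21.1 and from 10.3 to 10.2. The SA responses of -0.65 and -0.55 lay below the wild-type responses of 0.42 and -0.01, a difference of -0.83 ± 0.19 (95% interval -1.23 to -0.43). Without wild-type culture 2 it was -1.02. Zbed6, a zinc finger factor encoded within Zc3h11a, with which it can share reads (chromosome 1, 133655879 to 133660885, minus strand), went from 6.71 to 0.320 CPM and from 5.67 to 1.46 in SA cultures 1 and 2, and from 4.53 to 4.64 and from 6.04 to 2.91 in wild-type cultures 1 and 2. Its difference of -2.31 ± 0.50 ranged from -3.85 to -1.47 with 1 culture left out, and was -2.83 without wild-type culture 2.

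The ion channel genes in this set lay lower after KCl in both SA cultures and level or higher in wild type. Gabrb2, the beta2 subunit of the GABA-A receptor (chromosome 11, 42419757 to 42629028, plus strand), had responses of -0.47 and -0.38 in SA and 0.06 and 0.04 in wild type, a difference of -0.48 ± 0.12 (95% interval -0.73 to -0.22). The potassium channel gene Kcnh7 (chromosome 2, 62693414 to 63184287, minus strand) had -0.33 and -0.27 in SA and 0.12 and 0.38 in wild type, a difference of -0.57 ± 0.13. The mitotic kinesin gene Kif11 had -0.52 and -0.31 in SA and 0.06 and 0.19 in wild type, a difference of -0.53 ± 0.12. The remaining genes were Zfp871 (-0.64), Tmtc3 (-0.62), Fsd1l (-0.60) and Brwd3 (-0.53). These 7 were chosen for separated responses, so leaving out a single culture could not turn their sign. Fsd1l was -0.38 without SA culture 1.

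**Figure D4:**
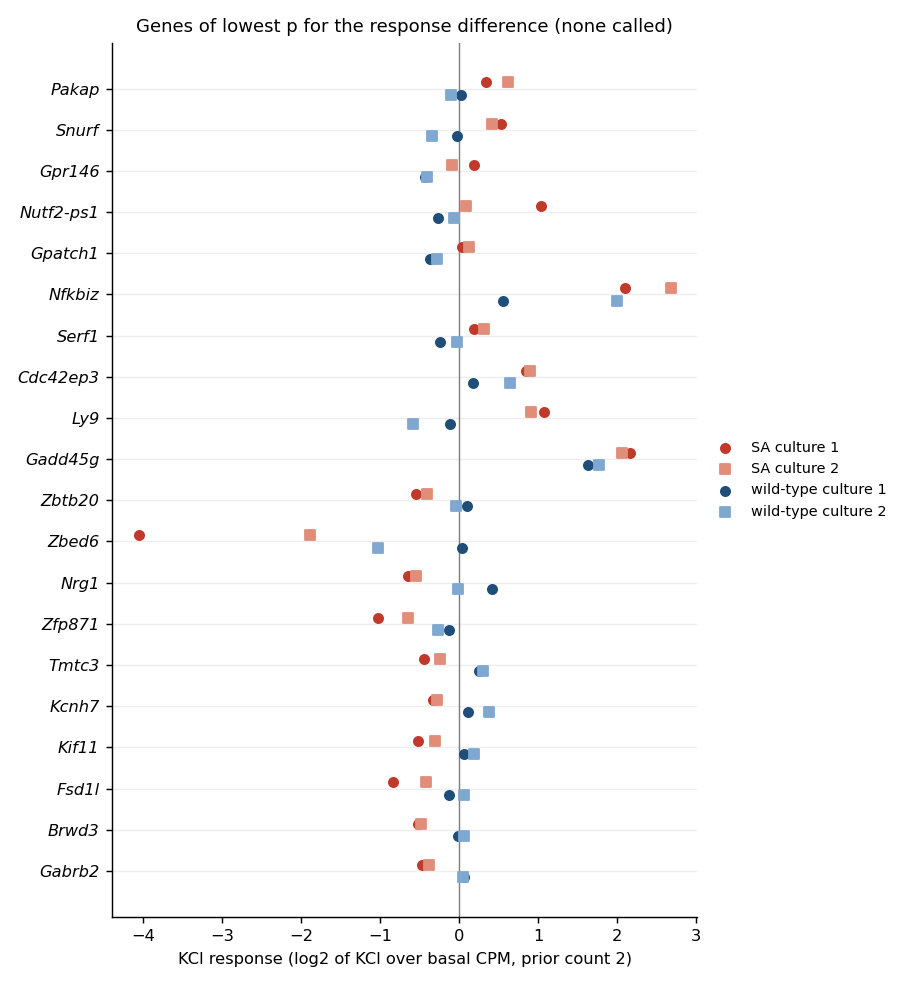
KCl response (log2, horizontal axis) in each culture of the 10 named genes of lowest p with a higher and the 10 with a lower response in SA, with SA in red and wild type in blue, circles for culture 1 and squares for culture 2. The genes were chosen for separated responses, none was called, and Zbed6 spans -4.06 to 0.03.

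The lower genes were long. The longest annotated transcript had a median of 6730 bases in the 10 lower genes and of 2376.5 in the 10 higher ones. Over the 16650 genes with an annotated length (97% of those tested), split into 5 groups of increasing length, the median response difference was 0.03, 0.02, -0.01, -0.01 and -0.07. The group of longest transcripts, from 5155 bases, held 282 of the 530 genes with a lower SA response at an unadjusted p under 0.05, and 8 of the 180 with a higher one. The cultures did not follow genotype here. In that group the median response was -0.11 in SA culture 1, -0.01 in SA culture 2, 0.03 in wild-type culture 1 and -0.02 in wild-type culture 2, so SA culture 2 lay between the wild-type cultures. Across genes the Spearman correlation of response with length was -0.224 and -0.0761 in SA and 0.122 and -0.153 in wild type. With a correction for length, added after the data were seen, edgeR called 0 genes and 621 had an unadjusted p under 0.05, of which 250 were higher and 371 lower in SA. The corrected difference was -0.29 for Zbtb20, -0.79 for Nrg1, -0.46 for Gabrb2 and 0.67 for Arc.

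**Figure D5:**
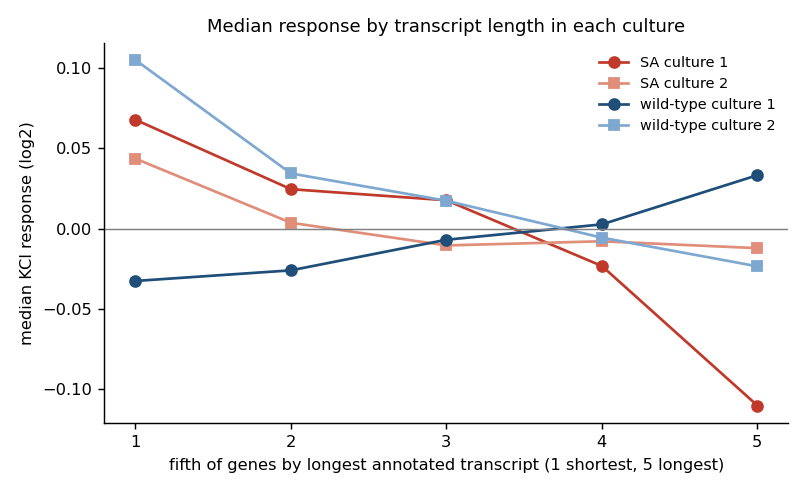
Median KCl response (log2, vertical axis) of genes in 5 groups of increasing longest annotated transcript (horizontal axis), 1 line per culture. In the group of longest transcripts SA culture 1 lies lowest (-0.11) and wild-type culture 1 highest (0.03), with SA culture 2 and wild-type culture 2 between them.

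Neuronal receptor and channel genes had mostly negative differences, as had 9172 of all 17162 genes. Of 16 voltage-gated channel genes 15 had a negative difference. Their responses were separated and lower in SA for 4 (25%, against 17.1% of all genes) and higher for none (0%, against 13.3%), with a median of -0.14 (-0.06 without SA culture 1, and -0.01 with the length correction). Kcnq3, an M-type potassium channel subunit, differed by -0.35 ± 0.13, and the sodium channel gene Scn1a by -0.31 ± 0.16 (-0.21 without SA culture 1). Of 20 glutamate receptor and scaffold genes 14 had a negative difference, with a median of -0.07, which was 0.04 without SA culture 1. Grin2b, an NMDA receptor subunit (chromosome 6, 135713233 to 136173511, minus strand), went from 477 to 298 CPM and from 315 to 240 in SA cultures 1 and 2, and from 195 to 180 and from 488 to 416 in wild-type cultures 1 and 2. Its responses of -0.68 and -0.39 in SA lay below those of wild type at -0.11 and -0.23, a difference of -0.36 ± 0.12 (95% interval -0.62 to -0.11; adjusted p = 1), or -0.16 with the length correction and -0.21 without SA culture 1. The AMPA receptor gene Gria3 differed by -0.37 ± 0.13, and by -0.15 without SA culture 1. The part of length and of SA culture 1 in these results was not tested further.

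The genes that carry the calcium signal or remodel chromatin showed small differences. Of 22 calcium and CREB signalling genes 5 had separated lower responses (22.7%, against 17.1% of all genes) and 2 separated higher ones (9.09%, against 13.3%), with a median of -0.08 (0.002 without SA culture 1). Camk4, a nuclear calcium/calmodulin-dependent kinase, had -0.62 and -0.27 in SA and -0.14 and -0.05 in wild type (difference -0.35 ± 0.12, or -0.17 without SA culture 1), and Creb1 differed by -0.20 and by 0.01 without SA culture 1. Among 26 BAF subunits none was called for either response, 7 had separated lower responses (26.9%, against 17.1% of all genes) and 2 separated higher ones (7.69%, against 13.3%). The median was -0.01, and -0.03 to 0.02 with 1 culture left out. Pbrm1, the PBAF subunit with the lowest p, had -0.49 and -0.001 in SA and 0.11 and 0.05 in wild type (difference -0.33, or -0.08 without SA culture 1). Brd7, another PBAF subunit, differed by 0.19 and the BAF subunit gene Bcl7b by -0.24. All 26 intervals excluded a 2-fold difference in the KCl to basal ratio in either direction, as did those of 13206 of all 17162 genes. The 14 NuRD subunits, of a second remodelling complex, had a median of 0.03, and the lowest p was that of Mta1 (-0.13). Of 18 elongation and enhancer cofactors 6 had separated lower responses (33.3%, against 17.1% of all genes) and none higher ones (0%, against 13.3%). Their median difference was -0.009, no lower than the -0.013 over all genes tested. Aff4, a scaffold of the super elongation complex, was at -0.31 ± 0.12, or -0.20 without SA culture 1.

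Stress, metabolic and proliferation genes completed the lists. Of 14 ATF4 targets 13 had a negative difference (median -0.12), against 9172 of all 17162 genes. Separated lower responses were found for 4 of them (28.6%, against 17.1%). Their median response was 0.054 and 0.064 in SA cultures 1 and 2 and 0.255 and 0.065 in wild-type cultures 1 and 2. Chac1, which degrades glutathione (chromosome 2, 119351229 to 119354381, plus strand), had responses of -0.59 and -0.75 in SA and 0.49 and -0.36 in wild type. Its difference of -0.89 ± 0.27 was -0.32 without wild-type culture 1 and -1.18 without wild-type culture 2. Of 18 cell cycle genes 15 had a negative difference (median -0.07), with Top2a at -0.25 ± 0.10. The median response of this list was 0.19 and -0.05 in SA cultures 1 and 2 and 0.06 and 0.16 in wild-type cultures 1 and 2, so the SA cultures lay on both sides of wild type. Among 16 chaperone genes of the heat shock and unfolded protein responses, 4 had separated higher responses (25%, against 13.3% of all genes), with a median of 0.05. The HSP40 gene Dnajb1, called as induced in both genotypes, differed by 0.12, and by -0.02 without wild-type culture 1. The 17 cholesterol genes had a median of -0.03, with Idi1, an isoprenoid isomerase, at -0.26 ± 0.13 (-0.05 without wild-type culture 2 and -0.48 without wild-type culture 1). The 15 interferon genes tested had a median of -0.04, the 14 SRF and YAP targets -0.10 and the 13 mitochondrial genes 0.05, and none of their members was called.

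Markers of other cell types were present in all libraries, and their levels differed between cultures. The 12 meningeal fibroblast markers summed to 202 to 281 CPM over the SA libraries and 347 to 524 over the wild-type libraries, without overlap. With basal and KCl libraries paired, this sets 2 SA cultures against 2 wild-type cultures. The 10 neural progenitor markers summed to 1030 to 2030 CPM in SA and 1650 to 3370 in wild type. The 10 astrocyte markers summed to 3700 to 3840 CPM in SA and 2310 to 4100 in wild type. In bulk RNA fewer cells of a type and less RNA per cell cannot be told apart. The sample labels name neurons without a subtype. The 13 glutamatergic markers summed to 1100 to 1410 CPM in SA and 883 to 1240 in wild type. The 15 GABAergic markers summed to 888 to 1050 CPM in SA and 891 to 1100 in wild type. The response differences of these lists had medians of 0.10 for meningeal, -0.05 for progenitor, 0.10 for astrocyte and -0.001 for glutamatergic markers, and 0.01 for GABAergic, -0.03 for oligodendrocyte lineage, 0.11 for microglia, -0.16 for choroid plexus and -0.36 for the 7 tested endothelial and mural markers. Single markers of lowest p were the astrocyte filament gene Gfap (0.18), the microglial chemokine receptor gene Cx3cr1 (0.32), the cortical factor gene Foxp2 (-0.38), the choroid plexus water channel gene Aqp1 (-0.42) and the pericyte gene Rgs5 (-0.87, at a mean of 2.51 CPM), and none was called. The part of these cells in the response differences was not tested.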

How the data were processed

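RNA was sequenced from 14 libraries of cultured mouse cortical neurons, 8 of which enter the comparison. Per the submitters' processing notes, the authors used kallisto 0.43.1, a pseudoaligner, and the GRCm38 (mm10) build. The deposited values used are estimated counts per gene symbol (52459 symbols); 65.6% of nonzero values were not whole, and all 52459 equalled the sums of their transcripts within 0.01. How the authors summed them and whether strand was used are not given in the sources used here, so reads of antisense and overlapping genes may not be separated.

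Counts were rounded and genes kept by filterByExpr on the 4 groups (17162). Libraries were scaled by TMM, and edgeR 4.0.16 (R 4.3.3) fitted a level per culture and a KCl effect per genotype (2 residual degrees of freedom). The tested contrast was SA response minus wild-type response, with p-values adjusted by Benjamini-Hochberg over every gene tested and a threshold of 0.05. Responses per culture are log2 CPM ratios with a prior count of 2, and intervals are 95% intervals of the fit. The level per culture rests on the labels' replicate numbers, which pair libraries in the data: deviations of basal and KCl libraries of a number correlated at 0.451 in SA and 0.693 in wild type, whereas SA and wild-type responses of a number correlated at -0.0256. Replicates differed beyond sampling noise (chi-square per degree of freedom 16.7 to 61.1).

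Named genes are the 10 of lowest p in each direction with separated responses and a mean of at least 1 CPM, without unnamed gene models, 10 known activity genes, Smarca4, and up to 4 members of lowest p of each list; not every gene the rule takes is reported. The members and lists were chosen with earlier results of these data known, and the genes that fall with activity partly on these libraries. Genes from the SE line were called in its 6 libraries at an adjusted p under 0.05 with at least a 2-fold change. Positions are GRCm38 from GENCODE M21, promoter sequences from RefSeq. Alternatives used limma 3.58.1 and DESeq2 1.42.0, other scalings, filters and designs, and each culture left out. Scripts were tested on simulated data.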

Additional observations from a re-analysis of the deposited data

How the results depend on the processing

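No gene was called for the response difference under 12 of 17 alternatives, among them no replicate block (0 called, 66 at an unadjusted p under 0.05), all 14 libraries, DESeq2, limma voom and other scalings. Calls appeared with a KCl effect by replicate number (11), by sex (49), with no filter on low counts (61), and with a culture left out (0 to 30). The cause was not tested. Nutf2-ps1, Zbtb20, Zbed6, Nrg1, Zfp871, Fsd1l, Klf4, Egr3, Dusp1 and Nfkbiz were called both by sex and with no filter, Zbed6 and Nfkbiz also by replicate number. Dusp5 and Chac1 were called with no filter. KCl calls in SA were 864, and 67 with no replicate block, 144 over all 14 libraries with no replicate block and 384 with DESeq2, and were 200 to 1015 with a culture left out. In wild type they were 619, and 46, 134 and 288 under these settings, and 332 to 479 with a culture left out. The median difference of the induced genes was 0.0973 to 0.155 under the other settings and -0.0113 to 0.222 with a culture left out. Signs of named genes turned only with a culture left out, over these ranges: Smarca4 -0.101 to 0.134, Fos -0.0766 to 0.545, Fosb -0.154 to 1.16, Nr4a1 -0.221 to 0.216, Egr1 -0.0725 to 0.268, Bdnf -0.253 to 0.923, Scg2 -0.186 to 0.101, Dusp6 -0.17 to 0.713, Klf4 -0.0338 to 2.4, Fbxo33 -0.0123 to 0.944, Dusp5 -0.0782 to 1.45, Spry2 -0.0569 to 0.544, Creb1 -0.352 to 0.00713, Txnip -0.578 to 0.0207, Mycn -0.391 to 0.0107 and Dnajb1 -0.0163 to 0.247. With 1 culture left out the lone culture of a genotype is assumed to vary like the others. The correction for length was chosen after seeing the data.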
